A study of Mus musculus with 12 samples.

Results

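Cluster 17 is a small group of cultured mouse hepatocyte nuclei that the authors' own clustering of single-nucleus RNA profiles set apart. Its members were the nuclei of the Primary Hepatocytes samples that the deposited table names as cultured cells and places in cluster 17. The group held 1271 of 53467 nuclei in the series and 1271 of the 18394 nuclei of the Primary Hepatocytes samples. It was compared with the other 3 clusters of cultured hepatocytes, which held 5961 nuclei (cluster 0), 5846 nuclei (cluster 1) and 1682 nuclei (cluster 14). The question was whether genes of liver metabolism stood at a higher level in cluster 17 than in these clusters.

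The study used 8 wild-type mice, labelled C57BL6J (C57BL/6NTac in the study's methods, where the animals are male and 10 to 12 weeks old). Each mouse gave a Liver sample (a lobe cut off after the blood was flushed out and snap-frozen), a Cell Suspension sample (hepatocytes released by collagenase and pelleted) and a Primary Hepatocytes sample. The last were plated on collagen, kept for 24 hours in medium with serum, dexamethasone and insulin, and detached with trypsin. All groups thus shared genotype and the first perfusion, and the cultured nuclei shared plating, hormones and trypsin. Nuclei of 4 samples at a time were marked with hashtag antibodies and pooled, giving 6 pools, each with 1 droplet-based 3′ RNA library and 1 hashtag library. Each cluster of a mouse is therefore a part of the same culture as the other clusters of that mouse, and the mouse is the replicate (n = 8).

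Hepatocytes carry out most of the liver's chemistry. They make plasma proteins, glucose, urea and bile acids, and they modify foreign and endogenous compounds first by oxidation or reduction (cytochromes P450, aldo-keto reductases) and then by coupling to glucuronic acid, glutathione or sulfate. Plated hepatocytes are known to lower many of these genes and to raise genes of the cytoskeleton and of cell adhesion. Many liver genes also follow the circadian clock, a loop in which ARNTL with CLOCK or NPAS2 switches on its own repressors through E-box sequences.

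Total counts of unique molecular identifiers (UMIs, 1 per captured RNA molecule) were 10436255 to 21713090 in the Primary Hepatocytes samples, 8502525 to 32104065 in Liver and 2709659 to 17760883 in Cell Suspension. The summed nuclei of cluster 17 held 332719 to 2202038 UMIs per mouse and those of clusters 0, 1 and 14 together 9206741 to 19684821, so that the precision of a comparison was set by cluster 17. Pools shared 337 cell barcodes, and nuclei were therefore identified by pool and barcode. No Liver nucleus and 8 of 15049 Cell Suspension nuclei lay in cluster 17.

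Cluster 17 was present in every culture, at very unequal shares. It made up between 4.47% and 20.2% of the nuclei of the 4 cultured hepatocyte clusters, with a median of 5.85% and a mean of 8.75% ± 5.59 (SD, n = 8). Mouse 6 had the highest share, 20.2% with an exact 95% binomial interval of 18.3% to 22.1%. Mouse 5 followed with 14.1% (12.6% to 15.8%) and mouse 2 with 9.05% (7.78% to 10.4%). The other 5 mice lay between 4.47% and 6.15%, and the interval of mouse 1, the lowest, was 3.63% to 5.43%. Intervals of counts cover counting error only. The cultures of mice 1, 5 and 6 were in pool 3, so that this pool held both of the highest shares and the lowest share. Without pool 3 the mean share was 6.25% ± 1.62 (n = 5).

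**Figure D1:**
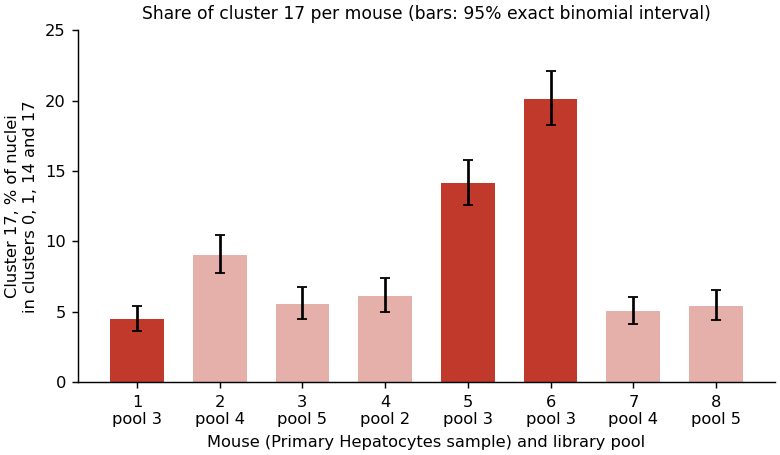
Share of cluster 17 among the cultured hepatocyte nuclei of clusters 0, 1, 14 and 17 in each of 8 mice (vertical axis in percent), with exact 95% binomial intervals; dark bars are the 3 cultures of pool 3. Mice 5 and 6 stand at 14.1% and 20.2%, and mouse 1 of the same pool at 4.47%.

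Nuclei of cluster 17 were shallower than the other cultured hepatocyte nuclei. The median UMI count per nucleus was 4871 in cluster 17 and 6581 in clusters 0, 1 and 14, and within mice the median was lower in 8 of 8, with a mean difference of -2069 UMIs. The share of unspliced UMIs was also lower in 8 of 8 mice, with a mean of 59.8% ± 2.74 against 63.1% ± 2.32. The hashtag library, which did not enter the clustering, was used for 3 tests. The assigned tag took, in the median nucleus, 42.2% ± 5.87 of hashtag UMIs in cluster 17 and 45.4% ± 5.90 in the other clusters, lower in 8 of 8 mice. The mean difference was -3.19 percentage points with an SD of 1.30 (exact permutation of signs over pairs, two-sided p = 0.0078, which 8 pairs cannot go below, adjusted p = 0.0117 over the 3 tests). The most abundant tag exceeded the next one by a ratio of 1.85 ± 0.60 against 2.05 ± 0.73, also lower in 8 of 8 mice (exact p = 0.0078, adjusted p = 0.0117). The share of nuclei whose second tag belonged to a Liver or Cell Suspension sample was set by the other samples of the pool. In cluster 17 it was 0.746% to 2.08% in the cultures of pool 3 and 98.9% to 100% in pools 4 and 5, so that its test over 7 cultures (exact p = 0.3125) could hardly show a difference. The part of depth and of hashtag purity in the gene differences was not tested beyond the values given here with thinned nuclei and with nuclei of clear hashtags.

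The hepatocyte label was checked against Hnf4a and Abcc2. The fixed hepatocyte markers were Alb, Ttr, Apoa1, Apob, Cps1 and Hnf4a. Abcc2 is not among them and was itself higher in cluster 17 than in clusters 0, 1 and 14. Ttr, Apoa1, Apob and Cps1 differed from these clusters by 0.92, 0.12, -0.25 and 0.11 on the log2 scale. Their levels in cluster 12 are not reported here. Hnf4a, a transcription factor that defines hepatocytes, stood at 167 ± 62.8 CPM (UMIs scaled to the same total in each sum, with factors of the trimmed mean of M values, TMM) in cluster 17 and at 177 ± 44.5 CPM in clusters 0, 1 and 14. Abcc2, the pump that exports conjugates into bile, stood at 1512 ± 451 CPM in cluster 17. In cluster 12, cultured nuclei in which the endothelial receptor Flt1 stood at 654 CPM, Hnf4a was at 63.9 CPM and Abcc2 at 218 CPM. The albumin gene Alb was no guide, since it stood at 1774 CPM in cluster 17, 1399 CPM in cluster 12 and 4582 CPM in barcodes of 50 to 500 UMIs, which hold free RNA.

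Markers of other cell types were near the level of the other cultured hepatocytes or below it, apart from stellate markers. The summed level of 9 Kupffer cell markers was 5.16 to 28.5 CPM in cluster 17 and 9.92 to 19.5 CPM in clusters 0, 1 and 14, that of 12 endothelial markers 62.8 to 155 and 78.0 to 150 CPM, and that of 9 leukocyte markers 22.4 to 40.7 and 38.6 to 61.2 CPM. The 9 cholangiocyte markers summed to 48.6 to 90.6 CPM against 149 to 198 CPM. The 12 stellate cell markers summed to 112 to 751 CPM against 62.6 to 556 CPM, and most of this was Reln, at 337 ± 238 CPM in cluster 17 and 178 ± 170 CPM in the other clusters. The part of these cells in the results was not tested.

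The 7 markers given for cluster 17 code for 5 enzymes, a carrier and a clock repressor. Because the clusters were made from these genes in these nuclei, all gene differences between clusters are descriptions without a test. A gene was counted as higher (or lower) in cluster 17 when the mean difference of log2(CPM + 1) within mice was at least 1 (or at most -1) and had the same sign in 8 of 8 mice, and only genes averaging 10 CPM or more were examined. Of 8766 such genes, 568 were counted higher, which is 6.48%, and 869 lower, which is 9.91%, and the median difference of all of them was 0.02. With TMM factors taken over all genes these counts were 316 and 1382. The average was over both groups, so that a gene below 10 CPM in 1 group could be examined through the other alone. Of the genes counted against clusters 0, 1 and 14 together, 255 of the 568 and 342 of the 869 also met the rule against each of these clusters alone. All 7 markers were counted higher, as their choice as markers implies.

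Akr1c19, an aldo-keto reductase that reduces carbonyl groups of steroids and other compounds, ranged from 263 to 583 CPM in cluster 17 (median 416) and from 14 to 37.0 CPM in clusters 0, 1 and 14 (median 22.4). The 2 groups did not overlap, and the difference was 4.08 ± 0.61 on the log2 scale. Such a lack of overlap was common, since it held for 2156 of the 8766 genes examined. The gene lies on chromosome 13 (chr13:4228700-4252843, plus strand, GRCm38). In Liver hepatocytes it ranged from 65.3 to 168 CPM, so that cluster 17 exceeded the Liver of the same mouse in 8 of 8 mice, by 1.78 on the log2 scale.

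Ugt2b37, a glucuronosyltransferase, ranged from 23.2 to 172 CPM in cluster 17 (median 64.6) and from 2.77 to 9.24 CPM in the other clusters (median 4.27), a difference of 3.65 ± 1.16. In cluster 14 alone Ugt2b37 reached 25.6 CPM in mouse 6, above the lowest value of cluster 17, and the difference was 3.34. Its spread between mice was wide, with the 2 highest values in mouse 8 (172 CPM) and mouse 2 (142 CPM). It lies on chromosome 5 (chr5:87240493-87254804, minus strand). Liver hepatocytes had 1.23 to 29.7 CPM, and cluster 17 was above Liver in 8 of 8 mice.

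Dhrs9, a dehydrogenase of retinol and steroids, ranged from 212 to 534 CPM in cluster 17 (median 369) and from 48.3 to 118 CPM in the other clusters (median 73.7), without overlap and with a difference of 2.22 ± 0.29. It lies on chromosome 2 (chr2:69380445-69404533, plus strand). The means of clusters 0, 1 and 14 (39.6, 112 and 143 CPM) were also above the 5.52 to 34.5 CPM of Liver, and cluster 17 exceeded Liver by 4.46 on the log2 scale. The difference was 1.36 against cluster 14 alone, 1.72 against cluster 1 and 3.29 against cluster 0.

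Gk, the glycerol kinase that brings glycerol into glucose and lipid synthesis, ranged from 201 to 480 CPM in cluster 17 (median 295) and from 35.0 to 86.4 CPM in the other clusters (median 59.1), a difference of 2.43 ± 0.61 without overlap. It lies on the X chromosome (chrX:85701937-85776819, minus strand). Its Liver range of 114 to 387 CPM (median 272) overlapped that of cluster 17, which was above the Liver of the same mouse in 4 of 8 mice.

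Car3, the carbonic anhydrase that is abundant in liver, muscle and fat, ranged from 88.9 to 457 CPM in cluster 17 (median 171) and from 9.38 to 37.4 CPM in the other clusters (median 19.6), a difference of 3.31 ± 0.99 without overlap. It lies on chromosome 3 (chr3:14863512-14872523, plus strand). It was the only marker with a lower mean than Liver, where it ranged from 155 to 1199 CPM, and cluster 17 was above Liver in 1 of 8 mice. In free RNA it stood at 376 CPM in barcodes of 50 to 500 UMIs and at 99.8 CPM in cluster 12, above the 20.7 CPM of clusters 0, 1 and 14.

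Slc22a4, a plasma membrane carrier of organic cations and ergothioneine, ranged from 164 to 304 CPM in cluster 17 (median 242) and from 27.8 to 47.3 CPM in the other clusters (median 32.9), a difference of 2.72 ± 0.51 without overlap. It lies on chromosome 11 (chr11:53983123-54028090, minus strand). The Liver range of 20.2 to 50.2 CPM was close to that of clusters 0, 1 and 14.

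Ciart, a repressor of ARNTL-driven transcription, ranged from 25.8 to 115 CPM in cluster 17 (median 62.9) and from 1.89 to 5.80 CPM in the other clusters (median 3.29), a difference of 3.76 ± 0.65. It lies on chromosome 3 (chr3:95878503-95882251, minus strand). In Liver it ranged from 2.50 to 63.7 CPM with a median of 15.4. Its difference rested on spliced and ambiguous counts, since it was 2.05 from spliced counts alone and 0.00 from unspliced counts alone. The latter is an exact 0, the value of a gene with no unspliced counts in either group, and not a measured equal level.

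**Figure D2:**
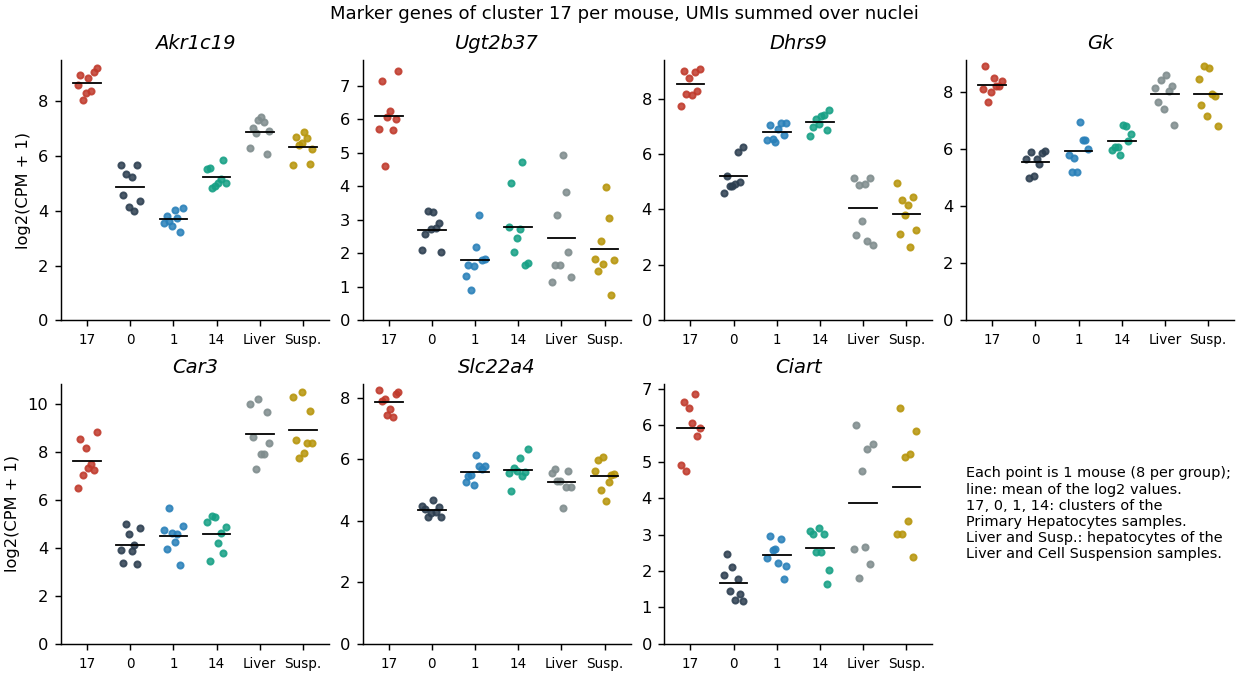
Level of the 7 cluster 17 markers in each mouse as log2(CPM + 1) of summed nuclei, for cultured clusters 17, 0, 1 and 14 and for hepatocytes of Liver and Cell Suspension; each point is a mouse and lines are means of the log2 values. For each marker the 8 values of cluster 17 lie above the 8 of clusters 0, 1 and 14 pooled, which are not drawn. For Akr1c19 these are 263 to 583 CPM against 14 to 37.0 CPM. Among the points drawn, Ugt2b37 in cluster 14 reaches 25.6 CPM in mouse 6, above the 23.2 CPM of cluster 17 in mouse 3.

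The marker differences were computed again with an equal number of UMIs per nucleus, though not per sum, and, separately, in nuclei with clear hashtags. With every nucleus thinned to 2000 UMIs the differences of the 7 markers were 1.97 (Dhrs9) to 3.94 (Akr1c19) while the median of all genes was -0.13, and with only nuclei whose first hashtag was at least 2 times the second they were 2.08 (Dhrs9) to 4.48 (Akr1c19), the latter over the 6 mice with at least 10 such nuclei of cluster 17.

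In single nuclei the markers were found in a minority after thinning. After thinning to 1000 UMIs, Akr1c19 had a UMI in 27.7% of 1270 cluster 17 nuclei, in 2.61% of 13432 nuclei of clusters 0, 1 and 14 and in 1.35% of 1256 nuclei of cluster 12, and unthinned in 54.7%, 13.3% and 2.08%. For Gk the thinned shares were 25.1%, 5.99% and 3.58%, against 59.6% and 27.3% unthinned in cluster 17 and the other hepatocytes. For Dhrs9 they were 24.5%, 8.03% and 2.15%, and for Slc22a4 19.3%, 3.83% and 1.19%. Unthinned, Dhrs9 was found in 50.8% of cluster 17 nuclei and 26.3% of the other hepatocyte nuclei, and Slc22a4 in 52.4% and 20.3%. Car3 was found in 13.4%, 3.02% and 6.85% after thinning, so that the share in cluster 12, which should lack it, exceeded that in clusters 0, 1 and 14. Ciart was found in 7.95%, 0.484% and 0.717%, and Ugt2b37 in 5.04%, 0.380% and 0.796%. Unthinned, the shares in cluster 17 and the other hepatocytes were 31.6% and 14.2% for Car3, 22.6% and 2.78% for Ciart and 12.4% and 2.44% for Ugt2b37. The median UMI count before thinning was 4871 in cluster 17, 6581 in clusters 0, 1 and 14 and 1351 in cluster 12.

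At least 2 of the 7 markers had a UMI in 34.7% of thinned cluster 17 nuclei, with 29.5% to 52.1% in the 8 mice. A high share follows from the choice of the markers as high in this cluster. Whether they share nuclei more often than their separate shares imply was not tested. The share was 2.36% in clusters 0, 1 and 14, 0.876% in cluster 12, 9.52% in Liver hepatocytes and 6.96% in Cell Suspension hepatocytes. None of the 7 was found in 26.5% of cluster 17 nuclei and in 78.3% of the nuclei of clusters 0, 1 and 14.

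Among the markers, Ciart is a clock gene, and the stretch before its start holds 3 E-boxes (CACGTG, which reads the same on both strands). The E-box stretches of the markers are shown together with that of Bhlhe41, another clock repressor, because these genes were high in cluster 17. Promoter windows of 250 bases before to 50 after the start came from RefSeq (GRCm38.p6). An E-box occurred in 7.15% of 32851 windows, and 3 or more occurred in 29 of them. Windows were found for 6 of the 7 markers (not for Car3), and 3 of these held an E-box, namely Ciart, Slc22a4 and Gk. The windows of Cry2, Nr1d1 and Nr1d2, clock repressors that were also counted higher in cluster 17, held no E-box. Cry1, Per1 and Tef, clock genes that were not counted, had a window with an E-box. Each line gives 30 bases on the gene's strand, 5′ to 3′, with the E-box in capitals, and each match is a description of the sequence only.
Ciart, chr3:95882327-95882356, minus strand, 116 bases from the E-box to the start: tgcatctagagtCACGTGttgccggtaagc
Ciart, chr3:95882269-95882298, minus strand, 58 bases from the E-box to the start: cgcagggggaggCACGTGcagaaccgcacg
Ciart, chr3:95882255-95882284, minus strand, 44 bases from the E-box to the start: cgtgcagaaccgCACGTGtctgggaggggg
Slc22a4, chr11:54028315-54028344, minus strand, 228 bases from the E-box to the start: cgctctccctccCACGTGgggccgagaaag
Gk, chrX:85776860-85776889, minus strand, 58 bases from the E-box to the start: cccgtccccgacCACGTGacccaccgcgcg
Bhlhe41, chr6:145865556-145865585, minus strand, 153 bases from the E-box to the start: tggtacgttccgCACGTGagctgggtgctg

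Metabolic genes as a whole were not uniformly higher in cluster 17. Of 208 genes on 15 lists of liver metabolism, 150 reached 10 CPM, of which 26 were counted higher (17.3%, against 6.48% of all genes), 19 lower (12.7%, against 9.91%) and 105 neither. These lists include the markers among their members, which adds to the first count. The median difference was 0.17, and it turned negative in 3 other settings, to -0.083 with TMM factors taken over all genes, -0.10 from unspliced counts alone and -0.054 with nuclei of clear hashtags.

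**Figure D3:**
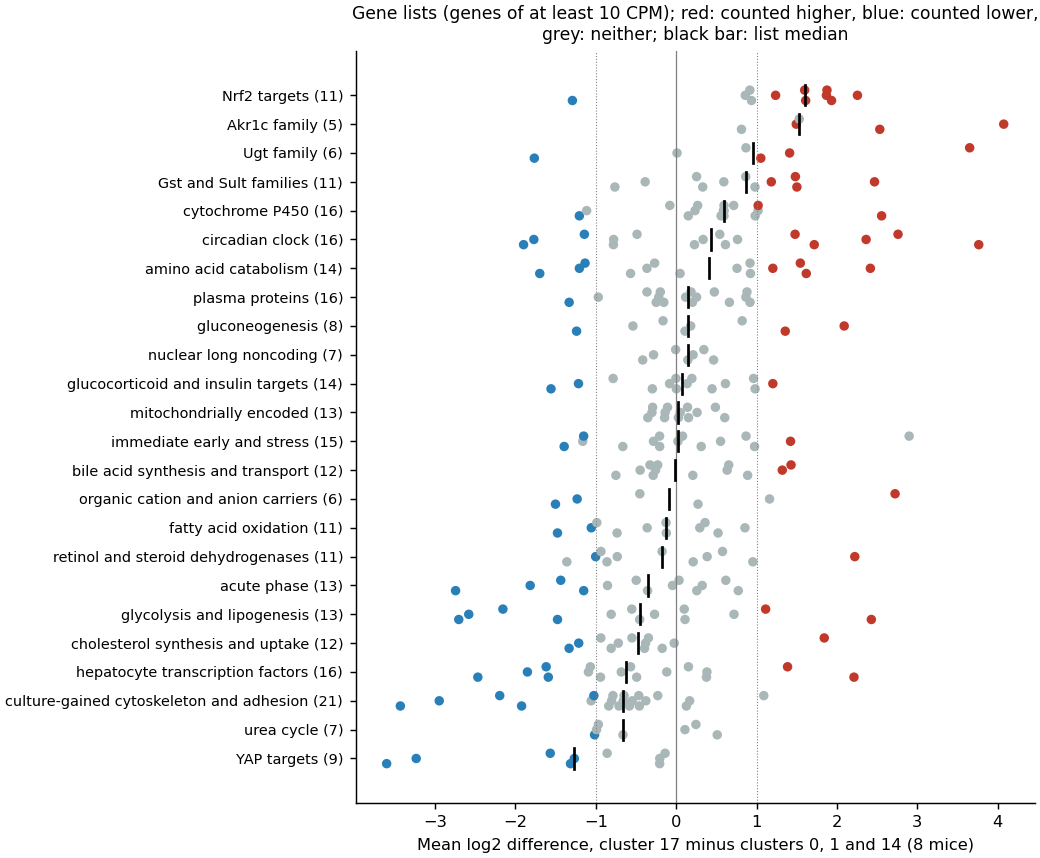
Mean log2 difference between cluster 17 and clusters 0, 1 and 14 for each gene of at least 10 CPM (horizontal axis), grouped by gene list; red points were counted higher, blue lower and grey neither, and black bars are list medians. The Nrf2 target list has a median of 1.60 and the YAP list -1.27.

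Of 5 measured Akr1c genes, 3 were counted higher and none lower, with a list median of 1.53, and 1 of the 3 is the marker Akr1c19. The median was 1.15 when every gene with at least 10 counts was used. The share counted higher over all genes was 6.48%. Akr1c13 ranged from 18.1 to 97.6 CPM in cluster 17 and from 5.38 to 16 CPM in the other clusters, a difference of 2.53 ± 0.84. Akr1c14, which reduces 3-ketosteroids, stood at 20 ± 4.09 against 6.75 ± 2.83 CPM, but at 336 CPM in Liver. Akr1c12 had 23.2 ± 9.74 against 7.09 ± 2.73 CPM and was above in 7 of 8 mice, so it was not counted. Akr1c14 and Akr1c12 averaged 10 CPM only through their level in cluster 17. The Akr1c genes are close copies in a cluster on chromosome 13, as are the Ugt2b genes on chromosome 5, and reads of such copies can be split between them, so their single values are uncertain. Of 11 retinol and steroid dehydrogenases, only the marker Dhrs9 was counted higher and Retsat, a retinol saturase, was counted lower. The list median of -0.18 turned to 0.27 against cluster 0 alone and 0.45 against cluster 1, and Retsat itself differed by 0.28 from cluster 0 and by -3.24 from cluster 14.

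Some glutathione and glucuronic acid transferases were also higher. Of 11 genes of the glutathione transferase and sulfotransferase families, 4 were counted higher (36.4%, against 6.48% of all genes) and none lower. The median of 0.87 was 0.51 from spliced counts alone and 0.18 when every gene with at least 10 counts was used. Gsta4, which couples lipid aldehydes to glutathione, ranged from 87.8 to 149 CPM in cluster 17 and from 13.8 to 34.4 CPM in the other clusters, a difference of 2.47 ± 0.29, and Liver hepatocytes had 9.30 CPM. Against cluster 14 alone the difference of Gsta4 was 1.19, that of Gsta2 0.61 and that of Gsta1 0.68. Gstm1 stood at 134 ± 26.5 against 46.6 ± 9.62 CPM, Gsta2 at 150 ± 32.4 against 52.5 ± 9.52 CPM and Gsta1 at 106 ± 28.3 against 45.5 ± 8.50 CPM. Of 6 glucuronosyltransferase genes, 3 were counted higher (50.0%, the marker Ugt2b37 among them), and Ugt2b36 lower (46.4 ± 12.4 against 158 ± 29.3 CPM, -1.77), though Ugt2b36 differed by only -0.25 from cluster 1 and -0.37 from cluster 14. Ugt2b37 was below 10 CPM in clusters 0, 1 and 14 and was examined only through its level in cluster 17. Ugt2b5 was higher by 1.05, at 1205 ± 313 against 567 ± 71.3 CPM.

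For cytochromes P450, bile acid genes and carriers the shares over all genes are again 6.48% higher and 9.91% lower. Of 16 P450 genes, 12.5% were counted higher and 6.25% lower. Cyp2f2, an enzyme of periportal hepatocytes, was counted higher (61.4 ± 12.9 against 9.99 ± 3.87 CPM, 2.56), as was Cyp39a1, an oxysterol hydroxylase (1.02), and Cyp2b10, which responds to foreign compounds, was counted lower (-1.20). Cyp2f2 averaged just under 10 CPM in clusters 0, 1 and 14 and was examined only through its level in cluster 17. Cyp2e1 stood at 52.2 ± 18.4 against 33.8 ± 10.7 CPM, while cluster 12 had 136 CPM. Of 12 bile acid genes, Abcc2 was counted higher (836 to 2234 against 388 to 804 CPM, 1.43, and 0.72 against cluster 14 alone) and so was Akr1d1, which reduces bile acid precursors (1.32), with a list median of -0.01, and these 2 are 16.7% of the list. Of 6 measured carriers of organic ions, the marker Slc22a4 was counted higher (16.7%) and 2 lower (33.3%), Slc22a18 among them (-1.50, but -0.53 against cluster 1 and -0.42 against cluster 14).

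Glucose and amino acid genes were mixed. Of 8 gluconeogenesis genes, Ppargc1a, a coactivator of this pathway, was counted higher and ranged from 22.6 to 147 CPM in cluster 17 against 10.5 to 21.1 CPM, without overlap (2.09 ± 0.94). Pck1 was also counted higher (1.36) and Pcx, pyruvate carboxylase, lower (-1.24). Of 14 genes of amino acid breakdown, 4 were counted higher (28.6%, against 6.48% of all genes) and 3 lower (21.4%, against 9.91%). The higher ones were Uroc1 of histidine breakdown (44.7 ± 22.4 against 6.90 ± 2.21 CPM, 2.42), Sds of serine (1.62), Tdo2 of tryptophan (1.54) and Tat of tyrosine (1.20), and the lower ones Aass of lysine (-1.70), Kynu of tryptophan (-1.20) and Fah of tyrosine (-1.13). Uroc1 and Sds averaged below 10 CPM in clusters 0, 1 and 14 and were examined only through their level in cluster 17. Kynu was lower only through cluster 0, since it differed by 0.29 from cluster 1 and by 0.38 from cluster 14, and Aass and Fah differed by -0.66 and -0.54 from cluster 14.

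The level of some of these genes in cluster 17 was at or near that in nuclei of another type. Pck1 stood at 71.8 CPM in cluster 17 and 129 CPM in cluster 12, and Sds at 22.9 and 25.1 CPM. Tat stood at 132 and 112 CPM and Tdo2 at 128 and 111 CPM, so that free RNA could not be told apart from expression at these levels. Uroc1 stood at 44.7 and 15.0 CPM and Ppargc1a at 84.6 and 23.3 CPM. These values are CPM, and nuclei of cluster 12 held a median of 1351 UMIs against 4871 in cluster 17. Equal CPM is therefore not an equal number of UMIs per nucleus.

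Genes of sugar and lipid synthesis were mixed. Of 13 measured genes, Gk and Me1, the malic enzyme that supplies NADPH, were counted higher, and 4 were counted lower, Pklr, Gpam and Acacb among them, which is 15.4% against 6.48% of all genes and 30.8% against 9.91%. The list median was -0.45, but -0.055 against cluster 1 alone and -0.089 against cluster 14. Me1 ranged from 344 to 472 CPM in cluster 17 and from 168 to 222 CPM in the other clusters, without overlap (1.11 ± 0.10). Pklr, liver pyruvate kinase, ranged from 0 to 12.8 CPM against 14.3 to 53.1 CPM, and clusters 1 and 14 had 9.91 and 9.41 CPM. Gpam of glycerolipid synthesis stood at 35.6 ± 14.1 against 153 ± 21.2 CPM (-2.16) and Acacb, an acetyl-CoA carboxylase, at 40.7 ± 11.9 against 113 ± 20.1 CPM (-1.48).

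Of 12 genes of cholesterol synthesis and uptake, 1 was counted higher and 2 lower, among the latter Srebf2, a transcription factor that regulates this pathway (28.6 ± 7.64 against 73.3 ± 18.5 CPM, -1.33). Of 11 genes of fatty acid oxidation, 2 were counted lower and none higher, and Hadha of the mitochondrial pathway stood at 14.6 ± 4.34 against 41.0 ± 6.95 CPM (-1.48). Of 7 urea cycle genes, Glud1 was counted lower (-1.02, but -0.30 against cluster 1 and -0.21 against cluster 14) and none higher. The share counted lower over all genes was 9.91%. Of 16 plasma protein genes, only the heme carrier Hpx was counted, lower by 1.33 in mean difference (280 ± 50.7 against 716 ± 196 CPM, and -0.35 against cluster 14 alone), and the list median of 0.15 was -0.10 with TMM factors over all genes, -0.18 with nuclei of clear hashtags and -0.68 from unspliced counts alone.

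Set against the tissue, cluster 17 held few metabolic genes at the Liver level. Of 187 metabolic genes with at least 10 CPM in Liver hepatocytes, 30 stood at 50% or more of the Liver mean in cluster 17 (16%) and 23 in clusters 0, 1 and 14 (12.3%). Among all genes of at least 10 CPM in Liver these shares were 65.2% and 71.3%. The median level of the 187 genes was 12.5% of Liver in cluster 17 and 10.7% in the other clusters, and 111 of the 187 had a higher mean in cluster 17. Within mice 78 to 119 of the 187 were higher in cluster 17, with fewer higher than lower in mice 1 and 7. Within mice the count was 19 to 41 in cluster 17 (30.4 ± 6.89) and 19 to 26 in the other clusters (22.5 ± 2.39), and the median level was 11.7% ± 3.03 against 11.4% ± 0.70, so that the ranges of both overlapped. Without TMM factors the counts were 43 and 37. With Cell Suspension as the reference they were 25 and 22.

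Both groups of clusters held 17 of these genes at 50% or more of Liver, which is 17 of the 30 and 17 of the 23. A further 13 met this level in cluster 17 alone, among them Akr1c12, Akr1c13, Akr1c19, Cyp2a5, Cyp39a1, Gk, Gstp1, Hsd11b1, Me1, Ppargc1a, Ugt2b34 and Ugt2b38. Another 6 met it in clusters 0, 1 and 14 alone, namely Acacb, Acadm, Acox2, Cyp3a13, Hsd17b2 and Srebf2. Of the 187 genes, 73 had a higher mean CPM in cluster 17 than in cluster 12, and 81 had in clusters 0, 1 and 14. Of the 30 genes at 50% or more of Liver in cluster 17, 28 were above cluster 12. For most of the 187 genes the remaining CPM was therefore at or below that of cultured nuclei of another type. Nuclei of cluster 12 were shallower, with a median of 1351 UMIs against 4871 in cluster 17. The same amount of free RNA per nucleus would therefore be a larger part of their CPM.

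**Figure D4:**
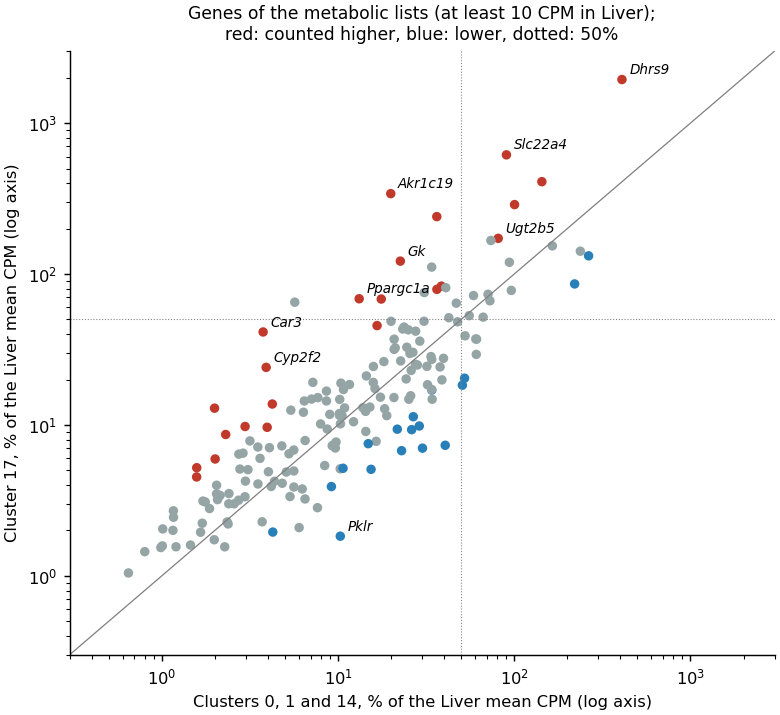
Level of 187 metabolic genes as percent of the Liver hepatocyte mean, in clusters 0, 1 and 14 (horizontal log axis) and in cluster 17 (vertical log axis); red points were counted higher in cluster 17, blue lower, dotted lines mark 50% and the solid line marks equal levels. Of these genes 30 lie above 50% in cluster 17 and 23 in the other clusters, and the medians are 12.5% and 10.7%.

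Clock genes differed in both directions. Of 16 measured clock genes, 5 were counted higher (31.3%, against 6.48% of all genes) and 3 lower (18.8%, against 9.91%). The first count includes the marker Ciart. Ciart, Nr1d1 and Bhlhe41 were below 10 CPM in clusters 0, 1 and 14 and were examined only through their level in cluster 17. Npas2 was examined only through clusters 0, 1 and 14. The listed genes Dbp, Hlf and Per3 did not average 10 CPM and were left out, so that the shares lean towards genes that differ. Those counted higher were all repressors: Ciart, Cry2, Nr1d1, Nr1d2 and Bhlhe41. Cry2 ranged from 145 to 215 CPM in cluster 17 and from 44.0 to 66.4 CPM in the other clusters (1.72 ± 0.20). Nr1d2, a REV-ERB repressor, ranged from 232 to 432 against 84.8 to 124 CPM (1.48 ± 0.31). Its relative Nr1d1 ranged from 8.08 to 70.9 against 3.48 to 4.97 CPM (2.76 ± 0.94), with mouse 1 far below the others, and Bhlhe41 from 12.9 to 35.2 against 2.28 to 4.58 CPM (2.36 ± 0.54). In cluster 14 alone Bhlhe41 ranged from 5.02 to 16.6 CPM, which overlaps cluster 17, and the difference was 1.15.

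Those counted lower were the activator Arntl, its partner Npas2 and the repressor Per2. Arntl ranged from 4.26 to 41.3 CPM in cluster 17 and from 47.6 to 90.5 CPM in the other clusters (-1.77 ± 0.70). In cluster 1 alone Arntl ranged from 26.2 to 57.6 CPM, which overlaps cluster 17, and the difference was -1.04. Npas2 stood at 7.26 ± 3.25 against 28.4 ± 7.90 CPM, but against cluster 1 alone, at 8.12 CPM, its difference was -0.21. Per2 ranged from 14.2 to 38.4 against 48.7 to 72.2 CPM (-1.14 ± 0.39), but against cluster 14 alone, at 37.0 CPM, its difference was -0.56 and 1 of 8 mice was higher in cluster 17. The other members that were not counted include Clock (109 against 151 CPM), Per1 (85.8 against 54.3 CPM) and Cry1 (64.9 against 44.0 CPM). Windows, 21 in all, were found for 16 of the 19 listed clock genes, and 5 of these genes had a window with an E-box.

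Targets of Nrf2, the factor that answers oxidative stress, were mostly higher. Of 11 measured, 7 were counted higher (63.6%, against 6.48% of all genes) and 1 lower (9.09%, against 9.91%). The median was 1.60, and 1.15 against cluster 14 alone. Gclc and Gclm code for the subunits of the enzyme that starts glutathione synthesis. Gclm ranged from 406 to 671 CPM in cluster 17 and from 111 to 167 CPM in the other clusters (1.88 ± 0.15), and Gclc from 4366 to 8350 against 1912 to 3541 CPM (1.24 ± 0.41). In Liver hepatocytes Gclc stood at 364 CPM, so that it was above Liver in all cultured clusters.

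The quinone reductase Nqo1 ranged from 20.7 to 58.9 against 6.20 to 12.6 CPM (2.26 ± 0.44). Nqo1 averaged below 10 CPM in clusters 0, 1 and 14 and was examined only through its level in cluster 17. In cluster 14 alone Nqo1 ranged from 12.6 to 28.7 CPM, which overlaps cluster 17, and the difference was 1.15. Pgd and Taldo1 of the pentose phosphate pathway differed by 1.60 ± 0.38 and 1.93 ± 0.32, and the sulfiredoxin gene Srxn1 by 1.61 ± 0.34. The cystine importer Slc7a11 stood at 272 ± 119 against 72.8 ± 35.5 CPM with overlap, and against cluster 14 alone, at 155 CPM, its difference was 0.70. The exception was Osgin1, at 81.0 ± 18.1 against 202 ± 53.2 CPM (-1.29, and -0.55 against cluster 1 alone). Txnrd1, Gsr and Hmox1 did not belong to the 7 but had mean differences of 0.94, 0.86 or 0.92, such as 1017 ± 118 against 537 ± 112 CPM for Txnrd1. The antioxidant response element TGACNNNGC was found on either strand in 12.4% of all windows and in those of 5 of 9 Nrf2 targets with a window.

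**Figure D5:**
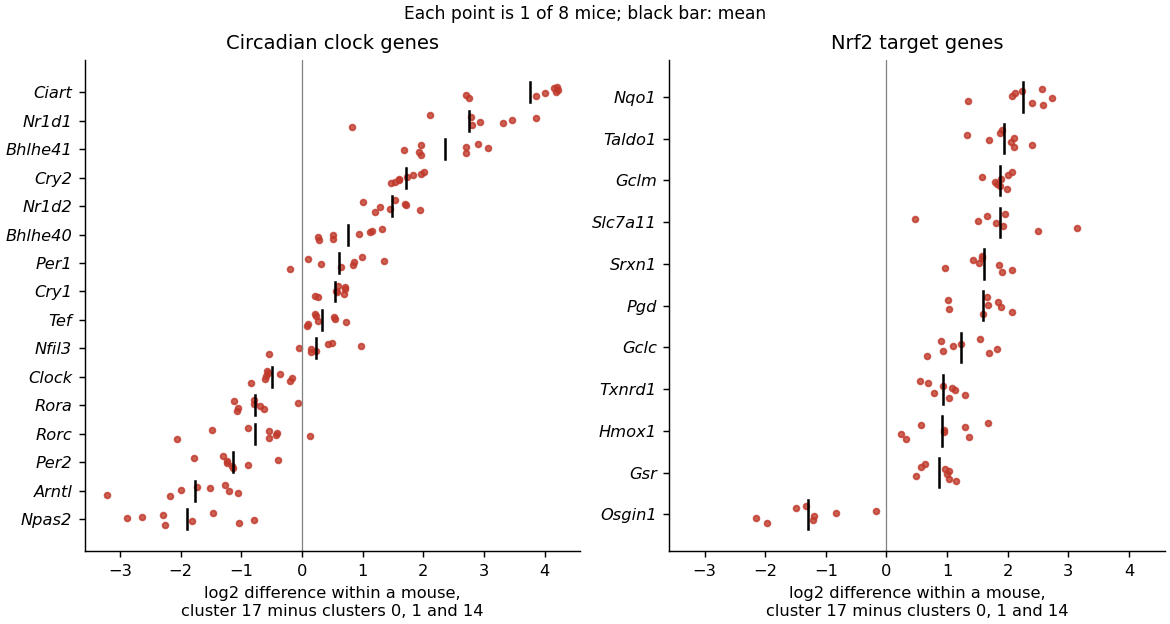
Log2 difference within each mouse between cluster 17 and clusters 0, 1 and 14 for clock genes and Nrf2 targets (horizontal axis); each point is 1 of 8 mice and black bars are means. Ciart, Nr1d1 and Bhlhe41 lie to the right with means of 3.76, 2.76 and 2.36, Arntl and Npas2 to the left with -1.77 and -1.90.

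A list of genes that culture is known to raise holds mainly cytoskeleton and adhesion genes, and also the transcription factors Creb5 and Runx1. Of its 21 measured genes, 5 were counted lower (23.8%, against 9.91% of all genes) and none higher, with a median of -0.66. The 5 were the actinins Actn1 and Actn4, the annexin Anxa3, the adhesion receptor Cd44 and Creb5. Creb5 ranged from 60.0 to 173 CPM in cluster 17 and from 472 to 995 CPM in the other clusters (-2.95 ± 0.35), and Liver had 6.98 CPM. Anxa3, a membrane-binding annexin, stood at 12.1 ± 8.62 against 127 ± 53.0 CPM, and the actin crosslinker Actn1 at 56.2 ± 12.1 against 261 ± 53.7 CPM. The list median was -1.09 against cluster 0 alone, -0.33 against cluster 1 and -0.17 against cluster 14. Actb, the cytoplasmic actin, had 241 ± 50.2 against 426 ± 25.4 CPM and was not counted.

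The list for YAP, a factor active in spread cells, holds its targets and also Yap1 itself, its relative Wwtr1 and its partner Tead1, which were not counted. Of the 9 measured members, 5 were counted lower (55.6%, against 9.91% of all genes) and none higher, with a median of -1.27. Ccn2 ranged from 0 to 4.85 CPM in cluster 17 and from 23.5 to 37.1 CPM in the other clusters, Ankrd1 from 0 to 4.27 against 5.30 to 48.2 CPM, and Ccn1 from 17.8 to 72.5 against 86.4 to 167 CPM. Ccn2 and Ankrd1 were below 10 CPM in cluster 17 and were examined only through their level in clusters 0, 1 and 14. Liver hepatocytes had 0.202 CPM of Ccn2 and 13.4 CPM of Ccn1. The size of this difference depended on the cluster compared, since Ankrd1 differed by -0.44 from cluster 1 and -0.42 from cluster 14, Ccn2 by -0.62 from cluster 1, and the list median was -0.77 against cluster 1 alone and -0.42 against cluster 14 alone.

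Hepatocyte transcription factors were mixed. Of 16, Cebpa (37.4 ± 9.30 against 7.17 ± 1.31 CPM, 2.21) and Cebpb (78.5 ± 16 against 29.6 ± 6.71 CPM, 1.39) were counted higher (12.5%, against 6.48% of all genes), and in Liver Cebpa stood at 41.9 CPM. Cebpa averaged below 10 CPM in clusters 0, 1 and 14 and was examined only through its level in cluster 17. The 4 counted lower (25.0%, against 9.91%) included Prox1 (-2.47), Nr5a2 (-1.62) and the drug sensor Nr1i2 (-1.59). Against cluster 1 alone Nr5a2 and Nr1i2 differed by -0.66 and -0.69. The list median was -0.63, with -1.06 against cluster 0, -0.086 against cluster 1 and -0.30 against cluster 14. Prox1 ranged from 8.08 to 59.4 CPM in cluster 17, from 115 to 194 CPM in the other clusters and had a mean of 629 CPM in Liver.

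Beyond the lists, the genes with the largest positive differences included, besides Akr1c19, Ciart, Ugt2b37, Car3, Slc22a4 and Cyp2f2, the noncoding or unnamed gene Gm49431 (93.8 to 478 against 9.24 to 43.5 CPM, with 1723 CPM in Liver), Tmem108, the transcription factor Foxq1 (65.0 to 121 against 8.14 to 14.1 CPM), the carboxylesterase Ces1d (38.7 to 157 against 8.36 to 17.1 CPM), the stress gene Gadd45b and the small GTPase Arl4a. Arl4a was at 192 CPM in cluster 12, above its 113 CPM in cluster 17. Ces1d has near copies, and its value is uncertain for that reason.

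Among genes with the largest negative differences were Sorbs2 and Lpp, which code for proteins of actin and adhesion sites. Sorbs2 ranged from 75.2 to 241 CPM in cluster 17 and from 1717 to 2295 CPM in the other clusters (-3.91 ± 0.64), and cluster 0 was highest with 3646 CPM. Lpp ranged from 226 to 364 against 1324 to 2354 CPM (-2.79 ± 0.35). The others were Anxa3, Crybb3, Syt12, Myo16, Creb5, Shroom1, Acnat1, Abhd6, Airn and Gm16170, with mean differences of -3.43 to -2.76. Liver hepatocytes had 666 CPM of Sorbs2 and 983 CPM of Lpp. Cluster 17 thus lay below Liver for both, while the other clusters summed together lay above. For Sorbs2 that sum includes the 3646 CPM of cluster 0. Whether each of the remaining clusters lay above Liver by itself is not reported here.

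Gene length moved with the difference. The median difference was 0.20 among 513 genes that span up to 5 kb and -0.24 among 594 genes that span more than 200 kb, beside the lower unspliced share of cluster 17. Its part in the differences of long genes such as Sorbs2 and Lpp was not tested.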

How the data were processed

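The authors quantified RNA and hashtag reads with Salmon Alevin and Alevin-fry against spliced and unspliced GRCm38 transcripts, demultiplexed nuclei with mclust, removed doublets with scDblFinder and clustered in Seurat. What the authors deposited are raw UMI counts by barcode, gene and splicing state, hashtag counts, and a table that labels each nucleus. Here the nuclei and clusters of that table were used without further filters, the 3 splicing states were added, and UMIs were summed per mouse and cluster. Sums were scaled to CPM with TMM factors (edgeR 4.0.16, R 4.3.3) over genes of at least 10 CPM, and log2(CPM + 1) was compared within mice. Liver and Cell Suspension hepatocytes were those the authors annotated. A pseudocount of 1 CPM understates changes of low genes. Thinning, hashtag tests and figures used Python 3.11.15 with scipy 1.17.1, numpy 2.4.6, matplotlib 3.10.9 and pandas 2.3.3. The rule for counting genes was also run on simulated sums with known changes, and the outcome is not reported here. Genes were named as the 7 markers, list members (mainly the 2 highest and 2 lowest of each list and those counted) and the 12 largest differences in each direction at 50 CPM or more. Other list members were named after their values were seen. Members and lists were chosen with earlier results of these data known. Pairing is by culture, since all clusters of a mouse come from the same sample. Of 444 list genes, 443 were matched. A hashtag labelled CD2 was read as Cell Suspension mouse 2. The single-gene values of some list members are not reported here.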

Additional observations from a re-analysis of the deposited data

Results flagged for a closer look

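In clusters 0, 1 and 14 together, the level of Ugt2b37 in mouse 6 (9.24 CPM) stood apart from the other 7 mice by Dixon's criterion for a sample far from its group. All 8 values of cluster 17 for this gene (23.2 to 172 CPM) were above it. In all, 19 groups of values were examined in this way, and chance marks about 1 in 20 groups.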

How the results depend on the processing

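The counts of 568 higher and 869 lower genes were 566 to 617 and 860 to 933 when each mouse was left out. With TMM factors over all genes, an alternative added after seeing the data, they were 316 and 1382. Then 18.6% of counted genes were higher in place of 39.5%, and the median of all genes moved from 0.02 to -0.23. In simulated sums of the real depths, with as many genes raised as lowered, factors over all genes were too high for shallow sums, by amounts not reported here. Factors over genes of at least 10 CPM were made the main setting for that reason. Real differences need not be balanced in this way, so the simulation cannot decide which of these settings suits the data. Thinning gave counts of 387 higher and 971 lower genes (28.5% higher). The lower genes numbered 1324 when every gene with at least 10 counts was used. The median over metabolic genes was -0.10 from unspliced counts, -0.083 with TMM factors over all genes and -0.054 with nuclei of clear hashtags. Without TMM factors, 37 metabolic genes reached 50% of Liver in clusters 0, 1 and 14 and 43 in cluster 17. Unpaired, without the block by culture, the hashtag differences of -3.19 and -0.21 had exact permutation p = 0.292 and p = 0.550, and the cause was not tested. The other alternative values of the tests, counts, shares and the metabolic median kept their direction and side, and the 7 markers were positive in every setting except Ciart from unspliced counts (0.00). That value was an exact 0, as for a gene with no unspliced counts.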

Other observations

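Acute phase genes, which the liver makes in inflammation, were not higher in cluster 17. Of 13 measured, 4 were counted lower (30.8%, against 9.91% of all genes) and none higher: Cp, the copper carrier ceruloplasmin (139 to 539 CPM in cluster 17 against 970 to 2680 CPM in clusters 0, 1 and 14), Orm2 (-1.82), Lcn2 (-1.44) and Hp (-1.15). The list median was -0.36, with -0.54 against cluster 0 alone, -0.16 against cluster 1 and -0.18 against cluster 14. Saa1 stood at 133 ± 34.0 against 142 ± 50.1 CPM. Of 15 immediate early and stress genes, Jund was counted higher (1.42) and Egr1 and Ier3 lower (-1.15 and -1.39), which is 6.67% and 13.3% and near the shares of all genes (6.48% and 9.91%). The heat shock gene Hspa1b ranged from 0 to 113 CPM in cluster 17 and from 0.277 to 0.704 CPM in the other clusters. It was at 41.5, 113 and 70.7 CPM in mice 2, 6 and 8 and between 0 and 10.3 CPM in the other 5.

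Of 11 periportal genes, 3 were counted higher (Cyp2f2, Sds and Pck1) and none lower, and none of 4 measured pericentral genes was counted, while the list medians were 0.11 and 0.67. The periportal median was -0.15 with TMM factors over all genes and -0.23 from unspliced counts. The pericentral median was 0.16 from spliced counts, where the periportal was 0.22, and 0.22 when every gene with at least 10 counts was used. Against cluster 14 alone the periportal median was 0.95 and the pericentral 0.17, so that the order of the lists turned in this setting and from spliced counts. The share counted higher over all genes was 6.48%, and Sds and Pck1 were not above their level in cluster 12 (25.1 and 129 CPM). The 13 mitochondrially encoded genes had a median difference of 0.03 and none was counted in either direction.

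Several genes of cluster 17 were highest in the mice with even numbers. Car3 ranged from 181 to 457 CPM in mice 2, 4, 6 and 8 and from 88.9 to 161 CPM in mice 1, 3, 5 and 7, Dhrs9 from 427 to 534 and from 212 to 311 CPM, and Ppargc1a from 79.0 to 147 and from 22.6 to 56.9 CPM. In Liver hepatocytes, Ciart had 63.7, 25.5, 39.5 and 43.6 CPM in mice 2, 4, 6 and 8 and 5.12, 2.50, 5.34 and 3.53 CPM in mice 1, 3, 5 and 7. Dhrs9 ran the other way in Liver, with 5.52 to 10.8 CPM in the even-numbered mice and 28.8 to 34.5 CPM in the odd-numbered mice. Car3 overlapped there, with 240 to 1199 and 155 to 1029 CPM. Of other clock genes in Liver, Arntl had 10.7 to 21.8 CPM in the even-numbered mice and 57.9 to 108 CPM in the odd-numbered mice. Per3 had 148 to 187 and 24.2 to 55.6 CPM, while Cry1 and Rora overlapped. Gk had 114 to 263 and 281 to 387 CPM in Liver, and cluster 17 exceeded this level of the same mouse only in the even-numbered mice. In cluster 17 the Ciart values of these sets were 59.8 to 115 and 25.8 to 65.9 CPM, which overlap. This split was noticed in the values, was not tested, and no label used here gives the day or hour of isolation.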
